A study of Mus musculus with 2 samples.

Results

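Photoreceptor outer segments are stacks of membrane discs that are renewed every day, and 10 genes that build or supply them were followed here: Prph2, Rom1, Prom1, Cdhr1, Fscn2, Rp1, Rp1l1, Tulp1, Reep6 and Impg1. They were picked by name for their known roles, with earlier results of these data known, from the 32285 genes of the count tables. Each was counted in rods with few unspliced transcripts, in rods rich in them, and in cones. The retinae came from mice of 6 to 9 weeks, labelled WT, that carried floxed Tgfbr2 alleles and the leucine variant of RPE65 on a Balb-C/CD1 background. Both sexes were used in the experiments of the study as a whole. Control mice stayed in darkness for 18 h, and light damage mice then received white light of 5000 lux for 30 min, with 6 h of recovery in dim light. Each condition is 1 single-cell library, made from pooled retinae (3 to 5 mice). With 1 library per condition no test was possible, and no p-value is given. All intervals are 95% intervals of counting error alone, which do not cover how mice or libraries vary.

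The outer segment is a modified cilium. Peripherin 2 (Prph2) and ROM1 form complexes that hold the curved rim of each disc, prominin 1 and the cadherin CDHR1 mark the young, still open discs at its base, and fascin 2 bundles actin. RP1 and its paralog RP1L1 bind the microtubules of the axoneme along which discs are stacked. TULP1 and REEP6 serve the transport of membrane proteins toward the outer segment, and IMPG1 is a proteoglycan of the matrix around it. Mutations in these genes cause retinal degeneration in humans or mice.

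Promoter sequence was matched for 7 of the 10 genes in the RefSeq table of GRCm38.p6, with 8 start sites, and not for Rp1, Rp1l1 and Reep6. The 200 bases that end before the annotated start are shown for the disc rim pair, Prph2 and Rom1, and for Fscn2 and Impg1, which stood lowest and highest among the 10 genes when the libraries were compared in rods. They lie at chr17:46910259-46910458 on the + strand (Prph2), chr19:8929357-8929556 on the - strand (Rom1), chr11:120361334-120361533 on the + strand (Fscn2) and chr9:80465482-80465681 on the - strand (Impg1). Capitals mark matches to the letters searched.
Prph2: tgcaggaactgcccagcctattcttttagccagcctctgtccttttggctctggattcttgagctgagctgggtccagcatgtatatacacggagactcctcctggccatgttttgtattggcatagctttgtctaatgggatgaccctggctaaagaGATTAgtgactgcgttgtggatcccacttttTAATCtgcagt
Rom1: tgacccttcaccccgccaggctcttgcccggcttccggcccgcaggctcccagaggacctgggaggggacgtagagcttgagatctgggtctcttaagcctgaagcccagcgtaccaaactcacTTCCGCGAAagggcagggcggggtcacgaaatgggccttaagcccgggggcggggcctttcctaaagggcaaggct
Fscn2: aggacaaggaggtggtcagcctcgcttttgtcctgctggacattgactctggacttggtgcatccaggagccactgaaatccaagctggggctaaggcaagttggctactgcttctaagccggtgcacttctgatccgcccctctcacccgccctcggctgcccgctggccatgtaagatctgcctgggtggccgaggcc
Impg1: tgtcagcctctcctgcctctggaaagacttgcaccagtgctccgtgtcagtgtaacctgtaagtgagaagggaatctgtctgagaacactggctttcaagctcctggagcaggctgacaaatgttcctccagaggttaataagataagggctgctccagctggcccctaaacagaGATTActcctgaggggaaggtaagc
Both strands of the 250 bases before each RefSeq start were searched for TAATCC, the motif of the photoreceptor factor CRX, for its first 5 letters TAATC, for TGCTGA of NRL, for TGANTCA of AP-1 and for TTCNNNGAA of STAT factors. TAATC was found before Prph2 and Impg1, with 2 matches each (1 of those of Impg1 lies past the stretch shown), and before the second start of Prom1, beside 19.85% of all 32841 promoters searched. TTCNNNGAA was found once before Rom1 (7.02% of all promoters), and TGANTCA once before each start of Prom1 (6.75%). TAATCC (6.25% of all promoters) and TGCTGA (16.08%) were found before none of the 7 genes. These are matches of letters and say nothing of binding.

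The control library held 30605284 UMIs and the light damage library 54413601, of which 18.7% and 32.7% were unspliced. After filters on UMIs, mitochondrial share and doublets, 3669 control and 5594 light damage droplets were kept, with 7 barcodes in common. Rods with under 15% unspliced UMIs, here called cytoplasm-rich, numbered 2163 and 1778. Rods with at least 40%, called nucleus-rich, numbered 589 and 2779, and cones 146 and 83. The libraries differed within these classes: the summed unspliced share of nucleus-rich rods was 61.8% for control and 55.4% for light damage droplets. Rod markers made up 10.4% and 9.51% of the UMIs of cytoplasm-rich rods and 2.11% and 1.94% of those of nucleus-rich rods. Cone droplets stood apart most: rod markers took 6.38% of their UMIs in control and 2.32% in light damage droplets, against cone markers at 0.844% and 1.22%, and their median UMI counts were 2716 and 13790. Opn1mw, Opn1sw, Pde6h, Arr3 and Gnat2 were among the 10 genes with the highest fold in cones of both libraries. All of them are markers by which cones were named, so their rank is no separate check of the class. In the rod classes those 10 genes held 1 rod marker, Nr2e3 in light damage cytoplasm-rich rods, and otherwise none. Xist, which is transcribed in female cells, had 3061 UMIs in nucleus-rich control rods and 2 in those of the light damage library. By this the light damage library held hardly any female cells, so the sexes of the pools and the light cannot be told apart.

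Levels are given as CPM, UMIs that were spliced or ambiguous per 1000000 such UMIs of the class. Differences are log2 ratios of CPM relative to the median gene, taken over genes that had 50 UMIs or more in the groups compared, and a gene was called when it stood at least 1.5-fold from the median gene with an interval that left the median gene out. In cytoplasm-rich rods 1 of the 10 genes, Fscn2, was called lower after light damage and none higher, beside 7.58% of all 8883 genes called lower and 7.2% higher. In nucleus-rich rods the result was the same, Fscn2 lower and none higher, beside 10.2% of 10167 genes lower and 11.9% higher. A call of 1 in 10 lies near these shares. Their median stood at -0.13 in cytoplasm-rich and -0.22 in nucleus-rich rods, and single genes ranged from -0.80 to 0.39 and from -0.96 to 0.50. The median gene itself shifted by 0.18 (log2) in cytoplasm-rich rods and by 0.01 in nucleus-rich rods. Without centring on it, 5 genes were higher and 5 lower in cytoplasm-rich rods instead of 4 and 6, and 3.04% of all genes were called lower and 14.5% higher.

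**Figure D1:**
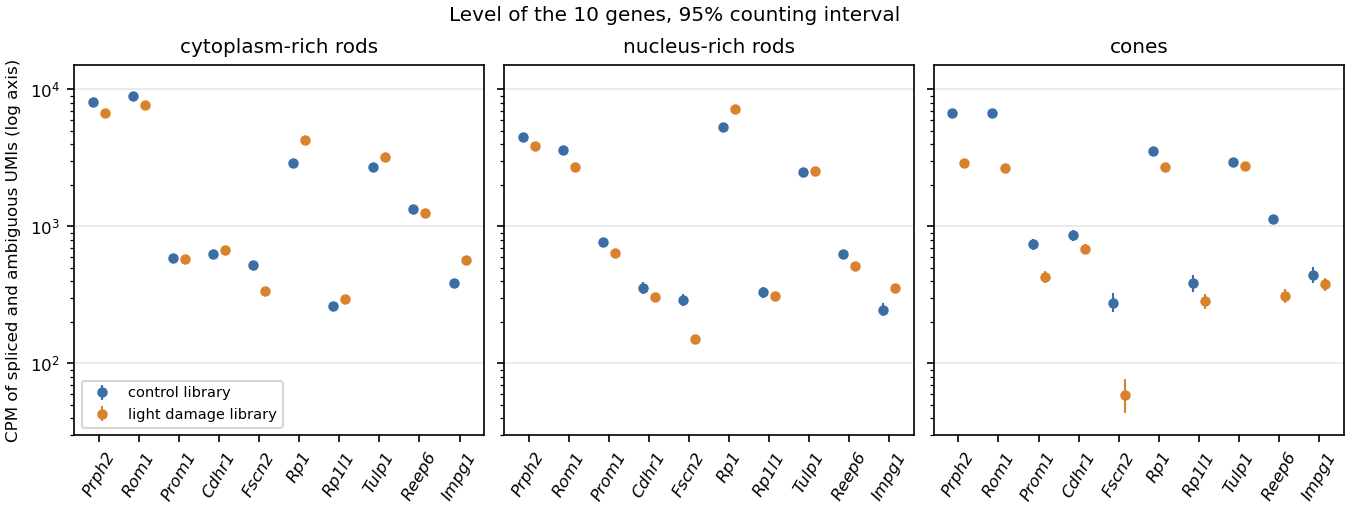
CPM of spliced and ambiguous UMIs (log axis) of the 10 genes in cytoplasm-rich rods, nucleus-rich rods and cones, for the control (blue) and the light damage library (orange). Bars are 95% counting intervals, mostly smaller than the points. In rods the 2 libraries lie close for most genes, while in cones Prph2 stood at 6668 and 2923 CPM, Rom1 at 6723 and 2650, Reep6 at 1127 and 310.2 and Fscn2 at 278 and 58.5.

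**Figure D2:**
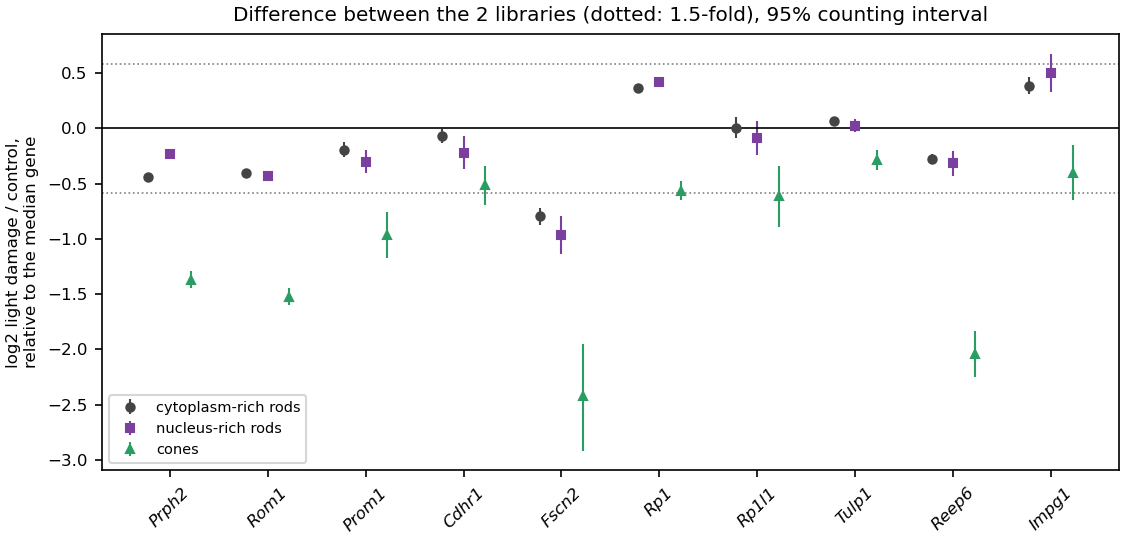
Log2 ratio of light damage over control relative to the median gene, for the 10 genes in cytoplasm-rich rods (circles), nucleus-rich rods (squares) and cones (triangles), with 95% counting intervals and dotted lines at 1.5-fold. Fscn2 lies below the lower line in all 3 classes, Rp1 and Impg1 lie above 0 in rods and below 0 in cones.

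The disc rim pair was lower after light damage in both kinds of rods, by less than 1.5-fold. Prph2 (ENSMUSG00000023978, chr17:46910459-46924933 in GRCm38, as for the genes that follow) stood at 8094 CPM in control and 6751 CPM in light damage cytoplasm-rich rods, and at 4459 and 3841 CPM in nucleus-rich rods. Relative to the median gene this was -0.44 (-0.46 to -0.42) and -0.23 (-0.27 to -0.19). Rom1 (ENSMUSG00000071648, chr19:8927391-8929356) stood at 8985 and 7687 CPM in cytoplasm-rich rods and at 3605 and 2697 CPM in nucleus-rich rods, a difference of -0.40 (-0.42 to -0.38) and -0.43 (-0.48 to -0.38). Both genes were thus below the median gene in both classes, with 15% and 17.2% of all genes lower than they were in cytoplasm-rich rods. A median cytoplasm-rich droplet held 21 Prph2 UMIs in the control library, 20 in that of light damage, and 23 Rom1 UMIs in both. The quartiles of Prph2 per droplet were 5162 and 9814 CPM in the control and 5031 and 8076 CPM in the light damage library, so the droplets of the libraries overlapped widely. The number of Prph2 UMIs per Rom1 UMI was 0.901 (0.891 to 0.911) in control and 0.878 (0.867 to 0.89) in light damage cytoplasm-rich rods, and 1.24 (1.19 to 1.29) and 1.42 (1.4 to 1.45) in nucleus-rich rods.

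Of the other membrane and actin genes, Fscn2 differed most. Fscn2 (ENSMUSG00000025380, chr11:120361534-120368168), the actin bundler, stood at 519 CPM in control and 338 CPM in light damage cytoplasm-rich rods, and at 291 and 150.4 CPM in nucleus-rich rods. It fell by 0.80 (interval -0.87 to -0.72) in cytoplasm-rich and by 0.96 (-1.13 to -0.79) in nucleus-rich rods on the log2 scale, where 2.86% and 4.04% of all genes stood lower. The call held in both classes under the 10 other settings tried and in rods of 50 to 60% unspliced, with values from -0.88 to -0.62 and from -1.26 to -0.64. Free RNA, taken from barcodes under 50 UMIs, also held less of it, with 557 CPM in the control and 296 CPM in the light damage library. The settings above include a subtraction of expected free RNA. In nucleus-rich rods its share was estimated from pigment epithelium markers, at 2.67% in control and 0.88% in light damage droplets, so little was taken. By rod markers, pigment epithelium droplets held 11.7% and 4.95% free RNA. The part of free RNA in the difference of Fscn2 was not tested. Prom1 (ENSMUSG00000029086, chr5:43993620-44102032) stood at 582 and 576 CPM in cytoplasm-rich rods and at 775 and 634 CPM in nucleus-rich rods, with differences of -0.19 (-0.26 to -0.13) and -0.30 (-0.40 to -0.20). Its locus overlaps Gm42716 on the same strand and Gm16401 on the other. Cdhr1 (ENSMUSG00000021803, chr14:37077857-37098347) stood at 626 and 674 CPM in cytoplasm-rich and at 355 and 307 CPM in nucleus-rich rods, with -0.07 (-0.13 to -0.01) and -0.22 (-0.37 to -0.07) relative to the median gene. Its CPM in cytoplasm-rich rods was higher after light damage before centring and lower after it.

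Of the axonemal pair, Rp1 stood above the median gene in rods and Rp1l1 near it. Rp1 (ENSMUSG00000025900, chr1:3999557-4409241) stood at 2914 CPM in control and 4248 CPM in light damage cytoplasm-rich rods, and at 5347 and 7209 CPM in nucleus-rich rods. Its difference was 0.37 (0.34 to 0.39) and 0.42 (0.38 to 0.46), above the median gene but short of 1.5-fold, with 82.4% and 78.1% of all genes below it. In free RNA Rp1 stood at 1926 and 1871 CPM. A median droplet held 7 and 12 Rp1 UMIs in cytoplasm-rich rods and 6 and 17 in nucleus-rich rods. Rp1l1 (ENSMUSG00000046049, chr14:63992506-64035025) stood at 262 and 297 CPM in cytoplasm-rich and at 329 and 312 CPM in nucleus-rich rods, with 0.01 (-0.09 to 0.10) and -0.09 (-0.24 to 0.07), and neither interval left out the median gene.

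Of the transport genes, Tulp1 (ENSMUSG00000037446, chr17:28351515-28365222) stood at 2691 and 3185 CPM in cytoplasm-rich and at 2485 and 2551 CPM in nucleus-rich rods, a difference of 0.07 (0.04 to 0.10) and 0.03 (-0.03 to 0.08). Reep6 (ENSMUSG00000035504, chr10:80329953-80336441) stood at 1346 and 1254 CPM and at 629 and 509 CPM, with -0.28 (-0.32 to -0.23) and -0.32 (-0.43 to -0.20). Impg1 (ENSMUSG00000032343, chr9:80313330-80465481), the matrix proteoglycan, had the highest ratio of the 10 in both classes. It stood at 386 CPM in control and 570.3 CPM in light damage cytoplasm-rich rods, and at 247 and 352 CPM in nucleus-rich rods, which gave 0.39 (0.31 to 0.46) and 0.50 (0.33 to 0.68). These lie short of 1.5-fold as well, and free RNA held 129 and 113 CPM.

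Since the 2 libraries filled the range of unspliced shares differently, rods were also divided into 8 bins of that share, and the CPM of each bin was set side by side. Prph2, Rom1, Fscn2 and Reep6 were lower in the light damage library in 8 of 8 bins, with log2 differences of CPM from -0.77 to -0.22, from -1.20 to -0.17, from -2.30 to -0.55 and from -0.95 to -0.03. Rp1 was higher in 8 of 8 bins (0.03 to 0.80). Impg1 (-0.24 to 1.14) and Tulp1 (-0.02 to 0.35) were higher in 7 of 8, while Prom1, Cdhr1 and Rp1l1 were higher in 2, 3 and 4 bins. The CPM intervals of the libraries overlapped for Reep6 under 5% and at 60% and above, and for Rp1 at 10 to 15% and 15 to 25%. For Tulp1 they overlapped in every bin from 15% up, and for Impg1 at 15 to 25% and 25 to 40%. These bin differences are not centred on the median gene, and all bins share the same 2 libraries. The share of all genes that kept 1 direction over the bins is not given. For Rom1 the gap was widest at 25 to 40%, with 7436 CPM over 155 control droplets and 3244 CPM over 377 light damage droplets. Reep6 there stood at 1123 and 582 CPM, while Rp1 stood at 3850 and 6714 CPM. Among rods of 50 to 60% unspliced, 122 control and 807 light damage droplets, 4 genes were called in place of 1: Fscn2 at -1.26, Rom1 at -0.66 and Reep6 at -0.64 were lower, and Impg1 at 0.71 was higher, beside 11.4% of 7846 genes lower and 9.19% higher in this window. The smallest bins held 24 and 46 light damage droplets, at 15 to 25% and 10 to 15%.

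**Figure D3:**
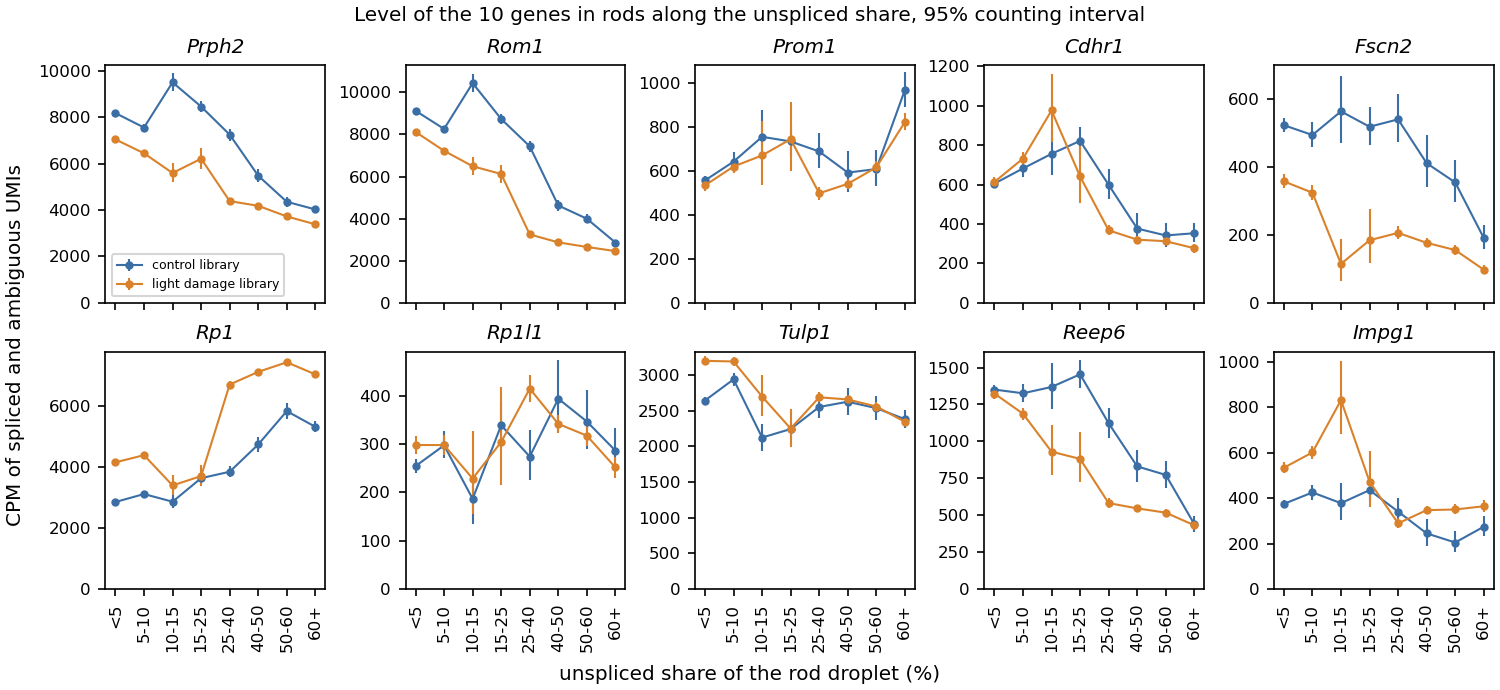
CPM of the 10 genes (vertical axis, from 0) in rods of the control (blue) and the light damage library (orange) over 8 bins of the droplet's unspliced share in percent. Bars are 95% counting intervals. The orange line of Prph2, Rom1, Fscn2 and Reep6 lies below the blue one in every bin, and that of Rp1 above it. The bars overlap in some bins of Reep6 and Rp1, and of other genes, Tulp1 and Impg1 among them.

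Unspliced UMIs come mostly from introns of nuclear transcripts and were compared in nucleus-rich rods, scaled per 1000000 unspliced UMIs. Rp1 rose most: its unspliced level was 1080 in the control (2137 UMIs) and 2755 in the light damage library (29277 UMIs), 2.66-fold relative to the median gene (log2 1.41, 1.35 to 1.48), and 96.5% of all genes stood lower. The rise was 2.87-fold in rods of 40 to 50%, 2.84-fold in rods of 50 to 60% and 2.1-fold in rods of at least 60% unspliced. At 50 to 60%, 77.9% of control and 95.5% of light damage droplets held an unspliced Rp1 UMI. Reep6 was called lower, from 90 to 52.4 on the same scale, at -0.72 (-0.97 to -0.47), and its 178 control UMIs are few. In all, 1 gene was called higher and 1 lower, beside 10.5% of 10471 genes higher and 7.74% lower. In cytoplasm-rich rods unspliced UMIs were few, and 7 of the 10 genes had enough to be read. There Rp1, with 1156 control and 993 light damage UMIs, stood at 0.06 (-0.06 to 0.18). Its unspliced level in cytoplasm-rich rods was 3298 and 2933 on the same scale, beside 1080 and 2755 in nucleus-rich rods. Where these UMIs came from was not tested. In cytoplasm-rich rods only Prom1 was called, lower at -0.63 (-0.96 to -0.31) with 229 and 122 UMIs, beside 9.96% of 1506 genes lower and 13.5% higher.

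The disc rim gene Prph2 had unspliced levels of 1518 and 1459 on this scale, at 0.00 (-0.05 to 0.06) relative to the median gene, in the same droplets in which its spliced level was at -0.23. In these nucleus-rich rods Prom1 likewise stood at 0.01 (-0.06 to 0.08), Tulp1 at 0.13 (0.03 to 0.22), Cdhr1 at -0.13 (-0.29 to 0.04) and Fscn2 at -0.30 (-0.55 to -0.03). Impg1 stood at 0.35 (0.29 to 0.40), beside 0.50 for its spliced UMIs. Rp1l1 stood at -0.54 (-0.64 to -0.44), opposite to its paralog. Rom1, with only 449 intron bases in its annotated 1966, had 8 and 56 unspliced UMIs and is not read.

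The share of a gene's UMIs that was unspliced differed widely among the 10 genes. In nucleus-rich rods of the control library it was 91.3% (90.3 to 92.2) for Impg1, 71.8% (69.4 to 74.1) for Rp1l1 and 67.4% (65.7 to 69.1) for Prom1, above the median of 58.5% over all genes. It was 46.4% for Cdhr1, 35.5% for Prph2, 29.8% for Fscn2, 24.6% for Rp1, 24.5% for Tulp1, 18.8% for Reep6 and 0.181% for Rom1. In the light damage library the median over all genes was 50.1%, and the share was lower than in the control for 7 of the 10 genes. The share was higher for Rp1, at 32.2% (31.8 to 32.5) against 24.6% (23.7 to 25.5), and, with overlapping intervals, for Fscn2, at 33% against 29.8%, and for Rom1, at 0.242%. In cytoplasm-rich rods no gene passed 5.47% in the control or 3.74% in the light damage library, and in both Rp1 had the highest share.

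**Figure D4:**
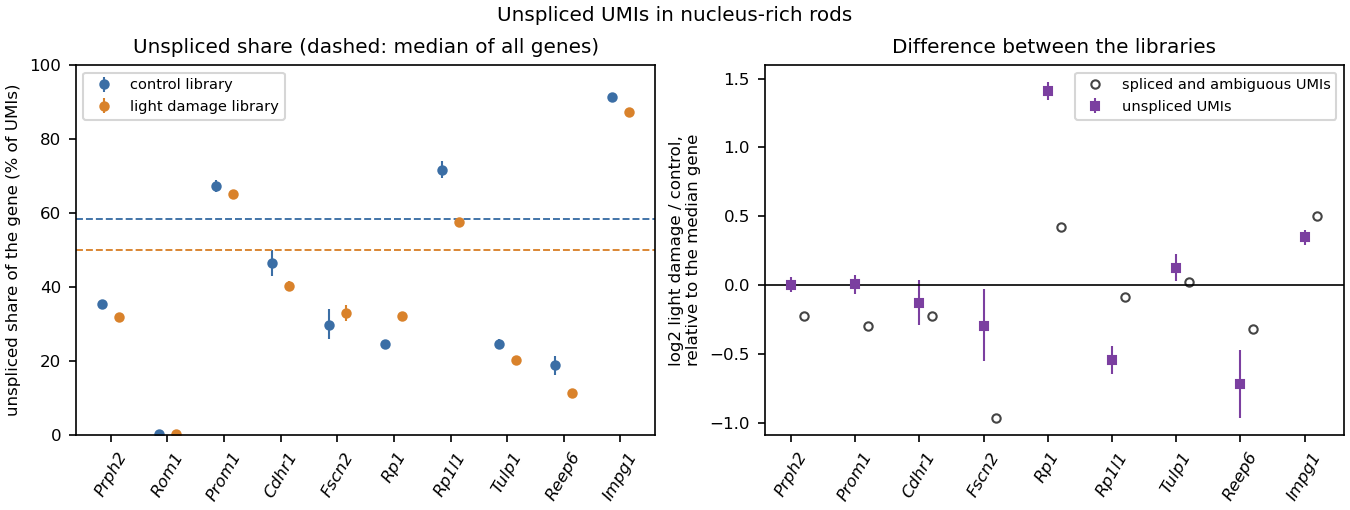
Nucleus-rich rods. Left, unspliced share of each gene's UMIs in percent in the control (blue) and the light damage library (orange). Dashed lines at 58.5% and 50.1% are medians of all genes with 50 UMIs or more in the class. Right, log2 ratio of light damage over control relative to the median gene for unspliced UMIs (squares) and for spliced and ambiguous UMIs (open circles), without Rom1. Bars are 95% counting intervals. Rp1 stands at 1.41 for unspliced and 0.42 for spliced and ambiguous UMIs.

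Nucleus-rich rods held less spliced RNA of most of the 10 genes than cytoplasm-rich rods of the same library. In the control library 7 of the 10 were called lower and none higher, beside 30.5% of 8539 genes lower and 30.7% higher. In the light damage library 9 were called lower and none higher, beside 29.9% of 10299 genes lower and 28.7% higher. The median gene stood at 0.68 and 0.74 (log2 of CPM) in these comparisons, and without centring on it 6 genes were called lower and 1 higher in each library, beside 15.3% of all genes lower and 51.3% higher in the control and 12.2% and 55.3% in the light damage library. Rom1 stood lowest, at 40.1% of its CPM in cytoplasm-rich control rods and at 35.1% in the light damage library, where it was at -2.25 (-2.28 to -2.23). Reep6 stood at -1.78 and -2.05, Prph2 at -1.54 and -1.56, Fscn2 at -1.52 and -1.91, Cdhr1 at -1.50 and -1.88, Impg1 at -1.33 and -1.44, and Tulp1 at -0.80 and -1.06. The call of Tulp1 was lost in both libraries without centring, at -0.11 and -0.32. That of Impg1 reversed when unspliced UMIs were included, to 0.79 and 0.29. Rp1 did not follow them: its CPM in nucleus-rich control rods was 183% of that in cytoplasm-rich ones, 0.19 (0.15 to 0.24) relative to the median gene, and in the light damage library it stood at 0.02, with an interval that held the median gene. Prom1 at -0.27 and -0.60 and Rp1l1 at -0.35 and -0.67 were called in the light damage library only, both stood above 0 there without centring, at 0.14 and 0.07, and the difference between the libraries was not tested. The 7 rod phototransduction genes listed for reference were all called lower in both libraries, with medians of -1.87 and -2.44 beside -1.41 and -1.50 for the 10 genes.

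In cones the reading depends on the rod RNA that cone droplets held. The 10 rod markers stood in control cones at 62.2% to 99.3% of their CPM in cytoplasm-rich rods (median 83.5%), and in light damage cones at 19.5% to 51% (median 30.9%). By these markers control cones lay closer to rods than light damage cones did. In the control library 2 of the 10 genes, Fscn2 at -1.16 and Rom1 at -0.67, were called lower in cones than in cytoplasm-rich rods and none higher, beside 11.7% of 7907 genes lower and 14% higher. In the light damage library 7 were called lower and none higher, beside 17.4% of 8294 genes lower and 19.7% higher. Without centring 1 and 6 genes were called lower, beside 5.05% of all genes lower and 22.5% higher in the control and 9.24% and 31.5% in the light damage library.

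The light damage cones, which held less rod RNA, divided the genes. Fscn2 stood at 17.3% of its CPM in cytoplasm-rich rods (58.5 and 338 CPM), Reep6 at 24.7% (310.2 and 1254), Rom1 at 34.5% (2650 and 7687) and Prph2 at 43.3% (2923 and 6751). Fscn2, with only 50 UMIs in these cones, was thus just below the lowest rod marker, Nr2e3 at 19.5%. The other 3 were within the range of the rod markers. Rp1 stood at 64.1%, Impg1 at 66.5%, Prom1 at 74.4%, Tulp1 at 86.6%, Rp1l1 at 95.5% and Cdhr1 at 101%, above the highest rod marker. Among the 57 light damage cones with under 3% of UMIs from rod markers the rod markers stood at 12% to 43%, Fscn2 at 12.4%, Reep6 at 17.5%, Rom1 at 25.2% and Prph2 at 32.4%, while Rp1l1 stood at 100% and Cdhr1 at 89.7%. In these cones Fscn2 thus lay within the range of the rod markers. They were chosen for few rod marker UMIs, so a lower marker range was set by that choice. Again 7 genes were called lower, beside 19.2% of 8202 genes lower and 20.9% higher. Only 3 control cones met that limit, so the same could not be read there.

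**Figure D5:**
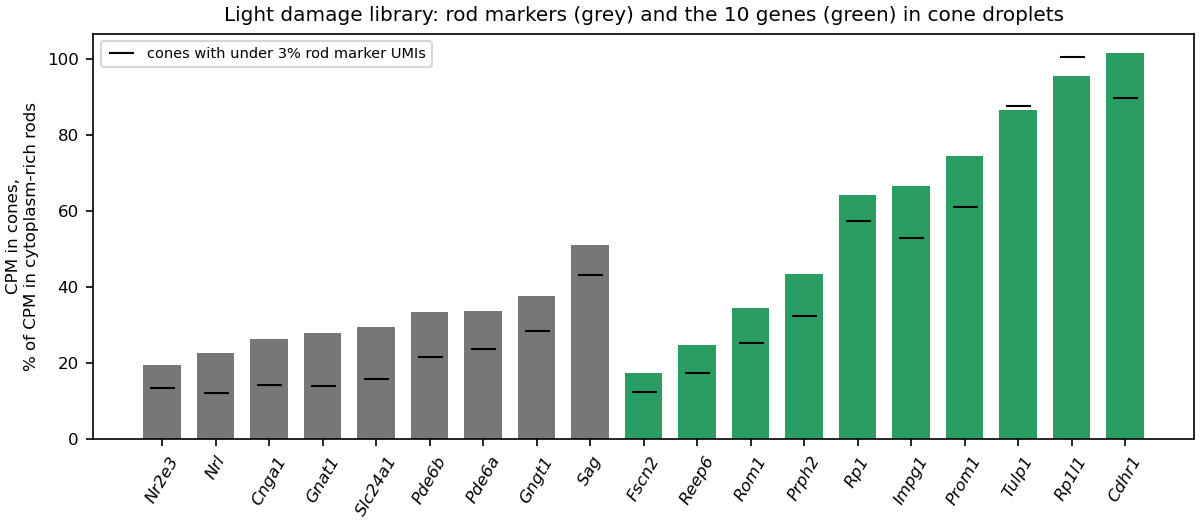
CPM in light damage cones as a percentage of CPM in cytoplasm-rich rods of the same library, for 9 of the 10 rod markers (grey bars) and the 10 genes (green bars). Black dashes give the same for cones with under 3% of UMIs from rod markers. The marker not drawn lies between the lowest and the highest drawn. Fscn2 lies just below the lowest rod marker, Reep6, Rom1 and Prph2 lie among the rod markers, and the other 6 genes above them.

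When cones of the 2 libraries were compared, 6 of the 10 genes were called lower after light damage and none higher, beside 16.6% of 4795 genes lower and 16% higher. Without centring 5 were called lower, Rp1l1 no longer among them, beside 10.6% of all genes lower and 23.3% higher. Fscn2 stood at -2.42 (-2.92 to -1.95), Reep6 at -2.04, Rom1 at -1.52, Prph2 at -1.37, Prom1 at -0.96 and Rp1l1 at -0.62. All 7 rod phototransduction genes were called lower in the same comparison, at a median of -1.63, and the rod marker share of the UMIs differed as given above. How far that rod RNA accounts for the 6 calls was not tested. Cdhr1 at -0.52, Rp1 at -0.56, Impg1 at -0.40 and Tulp1 at -0.29 were not called.

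The share of droplets with at least 1 spliced or ambiguous UMI was read after each droplet was thinned to 1400 UMIs, unspliced ones included. Prph2 was found in 98.9% of control and 99.8% of light damage cytoplasm-rich rods, and in 80.1% and 82.2% of nucleus-rich rods. Rp1 was found in 90.4% and 96.8% of cytoplasm-rich and in 84% and 92.9% of nucleus-rich rods, Impg1 in 30.2% and 48.9% and in 11% and 17.5%. For Fscn2 the shares were 41.1% and 31.8% of cytoplasm-rich rods and 10% and 6.77% of nucleus-rich rods. The retinal pigment epithelium, which should lack these transcripts, had Prph2 in 43.8% (169 control droplets) and 15% (280 light damage droplets), Rp1 in 27.8% and 13.9%, Fscn2 in 5.92% and 1.43% and Impg1 in 2.96% and 2.14%. Before thinning, at median totals of 2551 and 6438 UMIs, Prph2 was found in 55% and 40.4% of them. In cytoplasm-rich rods the interval of the share lay above that of pigment epithelium for 10 of 10 genes in both libraries. In nucleus-rich rods it did so for 7 genes in the control, with overlap for Cdhr1, Fscn2 and Reep6, and for 9 genes in the light damage library, with overlap for Cdhr1. These shares are not matched in depth: 61.8% of the UMIs of nucleus-rich control rods were unspliced, against 5.14% in control pigment epithelium. By CPM Fscn2 stood at 291 and Reep6 at 629 in nucleus-rich control rods, beside 42.3 and 103 in pigment epithelium. The part of depth in the overlap was not tested. Cdhr1 was found in 13.4% (10.8 to 16.4) of nucleus-rich control rods beside 20.1% (14.4 to 27) of pigment epithelium, and in 15.1% beside 13.2% after light damage. By this share alone its nucleus-rich rods are not set apart from pigment epithelium. Its CPM was higher in nucleus-rich rods, at 355 (322 to 390) beside 190 (160 to 225) in the control. After light damage it was 307 (295 to 319) beside 97.1 (84.8 to 111).

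Other genes of the outer segment and its cilium were counted from 6 lists. Of 11 disc and plasma membrane partners, none was called in cytoplasm-rich rods (median 0.01), and Rd3, a regulator of guanylate cyclase, was called higher in nucleus-rich rods, at 168 and 257 CPM (median -0.03). Of 18 genes of the connecting cilium, 17 could be read. The ciliary kinase gene Mak was higher in cytoplasm-rich rods, at 105 and 193 CPM (0.70), and in nucleus-rich rods 2 were higher, Cc2d2a at 0.71 and Iqcb1 at 0.60, and 4 lower, led by Rpgr at -0.75 and Nphp4 at -0.73 (medians 0.08 and -0.15). Rpgr is X-linked. Of 27 readable genes of intraflagellar transport and the BBSome, 3 were lower in cytoplasm-rich rods, led by Ift43 at -0.85 and Ift52 at -0.63, and 8 were lower in nucleus-rich rods, led by Ttc8 at -1.21 and Ift122 at -0.88, while the kinesin genes Kif3b at 0.77 and Kif3a at 0.66 were higher (medians -0.12 and -0.20). None of the 7 carriers of lipid-modified proteins was called in rods (medians -0.33 and 0.06).

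Of 9 readable genes of the interphotoreceptor matrix, calyx and Usher complex, none was lower and 2 were higher in each kind of rod (medians 0.08 and 0.28). Impg2, the second proteoglycan of the matrix beside Impg1, stood at 551 and 971 CPM in cytoplasm-rich rods (0.64, 0.58 to 0.70) and at 526 and 882 CPM in nucleus-rich rods (0.73, 0.62 to 0.85). Pcdh15 was higher in cytoplasm-rich rods at 0.74, and Rbp3, the retinoid-binding protein of the matrix, in nucleus-rich rods at 0.83, with 1005 and 1796 CPM. Of the 7 rod phototransduction genes, Pde6g at -0.85 and Gngt1 at -0.68 were lower in cytoplasm-rich rods and Gnb1 at -0.69 in nucleus-rich rods (medians -0.31 and -0.34). In cones, where rod RNA differed, all 7 were lower, led by Gnb1 at -2.01 and Pde6g at -1.76. There 7 of 10 partners were lower, led by Cnga1 at -1.89 and Slc24a1 at -1.73, and of the cilium genes 2 were higher, Mak at 0.87 and Cc2d2a at 0.76 (medians -1.14 and 0.16). Of 17 intraflagellar transport genes 7 were lower, led by Ift81 at -1.75 and Bbs7 at -1.39, and Dync2h1 was higher at 0.62 (median -0.50). Of 5 carriers 4 were lower, led by Arl13b at -1.01 and Arl3 at -0.87 (median -0.74). Of 8 matrix genes Crb1 was lower at -0.68 and 3 were higher, Pcdh15 at 0.64 among them (median 0.01).

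Genes with the most similar pattern were ranked by Pearson's r of log2(CPM + 10) over 11 groups of droplets (rods of both kinds, cones, pigment epithelium and Mueller glia of both libraries, and light damage microglia), among 8987 genes. The groups share libraries and free RNA, so r is a description. Near to Prph2 were Guca1a (0.995) and Fam3c (0.993). Near to Rom1 were Vtn (0.992), Pde6g (0.991) and Ccdc28b (0.991). For Prom1 they were Wdr17 (0.990) and Fam171b (0.988), for Reep6 Gm15706 (0.990) and Gnb1 (0.988), and for Impg1 Cul3 (0.992) and Lbhd1 (0.986).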

How the data were processed

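Retinal cells were captured with the 10x Genomics 3' protocol (v3.1). The authors deposited raw counts of UMIs per barcode and gene, without normalization or removal of empty droplets, in blocks of spliced, unspliced and ambiguous UMIs. The submitters' processing notes name alevin 0.8.1, Salmon 1.10.1, Cell Ranger 7.0.1 and mm10. Genes were named from GENCODE vM21 on GRCm38 (32235 of 32285 matched), and promoters come from RefSeq on GRCm38.p6.

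Droplets were kept above the point where the ranked barcode totals fall most steeply (1464 UMIs in the control, 1614 in the light damage library) and under 10% mitochondrial UMIs. A doublet score after Scrublet's scheme was computed, and its top 0.8% per 1000 droplets were left out, which removed 114 and 275 droplets. Droplets were named by marker UMIs: cones with at least 0.3% and 3 cone markers, rods with at least 0.5% and 3 rod markers and under 0.1% of every other class but red blood cells (under 1%), pigment epithelium with at least 1%, and glia, microglia and inner neurons with at least 0.5%. These limits were set after marker shares were seen, and 266 and 205 droplets stayed unnamed. The split of rods uses all genes, the 10 included.

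UMIs were summed per class and library: 6859140 and 6017873 spliced and ambiguous UMIs in cytoplasm-rich rods, 1223734 and 8569583 in nucleus-rich rods, and 547515 and 854382 in cones. Intervals are exact Poisson for CPM, exact binomial for shares and exact conditional binomial for ratios, all at 95%. The 10 genes, the 6 pathway lists and the markers were chosen with earlier results of these data known. The rule for named genes took all 10, the 3 most similar genes for Prph2, Rom1, Prom1, Reep6 and Impg1, and from each list the 2 largest called differences per direction between libraries. Some genes that this rule takes are not reported here. In all, 10 alternatives were planned and 2 added after the data were seen. The comparison was also run on Poisson counts simulated from the control profile with known changes, which hold no variation between mice or libraries. Scripts ran in Python 3.11.15 with scipy 1.17.1, numpy 2.4.6, scikit-learn 1.9.0, pandas 2.3.3 and matplotlib 3.10.9.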

Additional observations from a re-analysis of the deposited data

Results flagged for a closer look

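Genes whose difference between libraries went opposite ways in rods and in cones were singled out, on the log2 scale relative to the median gene. Rp1 was above the median gene in cytoplasm-rich rods (0.37) and nucleus-rich rods (0.42) and below it in cones (-0.56), gaps of 0.93 and 0.98. Impg1 was above it in cytoplasm-rich (0.39) and nucleus-rich rods (0.50) and below it in cones (-0.40), gaps of 0.79 and 0.90. Tulp1 was above it in cytoplasm-rich rods (0.07) and below it in cones (-0.29), a gap of 0.35. With 1 library per condition these differences between classes were not tested. Rod markers took 6.38% of UMIs in control cones and 2.32% in light damage cones, and their part in these gaps was not tested.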

How the results depend on the processing

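Of 338 values of called differences under the alternatives, 333 kept their direction and 320 stayed called. The count of the 10 genes called in cones against cytoplasm-rich rods of the control library was 2, and it was 10 (4 lower, 6 higher) with the expected free RNA subtracted, beside 23.6% of all genes lower and 32.7% higher, 4 with unspliced UMIs included (20% and 24.4%) and 1 without centring on the median gene (5.05% and 22.5%). The subtraction took 95% of the UMIs of control cones and left Rom1 and Fscn2 with 0 UMIs there. In nucleus-rich rods, light damage against control, the count of 1 became 2 with unspliced UMIs included, where Rp1 was higher at 0.83 (9.86% of all genes lower, 11.7% higher), and 4 in rods of 50 to 60% unspliced (11.4% and 9.19%), an alternative added after the data were seen. The other added one, cones with under 3% rod markers, gave 7 calls (19.2% and 20.9%).

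Directions that reversed were Rom1 in cones, light damage against control, at 5.60 with free RNA subtracted, where the control count was 0 and the value is set by the number put in its place, Impg1 in nucleus-rich against cytoplasm-rich rods with unspliced UMIs included, at 0.79 (control) and 0.29 (light damage), and, without centring, Prom1 at 0.14 and Rp1l1 at 0.073 in the same comparison of the light damage library. No paired analysis was possible because each condition has 1 library and no result comes from a test. Single calls of Prom1, Impg1, Tulp1, Rp1l1, Rom1 and Fscn2 were lost under 1 or more alternatives, those of Rom1 and Fscn2 in cones only, and the cause was not tested. Depth limits Fscn2 in light damage cones most, with 50 UMIs.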
